A study of Mus musculus with 42 samples.

Results

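The signaling lymphocytic activation molecule (SLAM) receptors are encoded by 9 neighbouring genes on mouse chromosome 1, namely Cd244, Ly9, Slamf7, Cd48, Slamf1, Cd84, Slamf6, Slamf9 and Slamf8 in the order of their positions. They were taken by symbol from 21884 protein-coding genes with a unique symbol (GENCODE vM21, mouse build mm10), and all 9 were found, Cd244 under its newer symbol Cd244a. They were chosen by the Pol II and H3K27ac values of the libraries themselves, because they lie in a segment of the chromosome where cells lacking Nur77 and wild-type cells differed in many regions. Therefore the differences between genotypes given here are a description without a test, whereas the response to lipopolysaccharide (LPS) within a genotype was not used for the choice and was tested.

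The libraries come from chromatin immunoprecipitation with sequencing (ChIP-seq) of bone marrow-derived macrophages, which were grown from marrow of male C57Bl6/J mice aged 6 to 12 weeks. The cells were wild type (WT) or lacked Nur77 in the whole body (KO), Nur77 being the nuclear receptor encoded by Nr4a1. Per the study's methods the KO came from floxed Nr4a1 mice crossed with mice that express Cre from the CMV promoter, with Cre later bred out and WT littermates as controls, whereas the genotype label of the KO libraries reads only "cre". In both genotypes the cells were left untreated (0 h) or received 100 ng/ml LPS for 1 or 18 h, which gave 6 groups with 3 libraries per antibody. Chromatin was precipitated for RNA polymerase II (Pol II), the enzyme that transcribes genes, or for acetylation of lysine 27 on histone H3 (H3K27ac), which marks promoters and enhancers in use. A further input library per group had no antibody.

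SLAM receptors are surface proteins of the immunoglobulin superfamily that are found on many blood cells. Most of them bind a copy of themselves on another cell, while CD48 is anchored in the membrane by a lipid and serves as the ligand of CD244. The tails of most members carry tyrosine motifs that recruit the small adaptors encoded by Sh2d1a and Sh2d1b1 or, in their absence, phosphatases. In macrophages SLAMF1 takes part in the handling of engulfed bacteria together with the phagocyte NADPH oxidase, SLAMF8 holds that oxidase back, and SLAMF7 takes part in the uptake of blood tumour cells.

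The 9 genes span 1031.38 kb. A first stretch of 393.978 kb from 171559193 to 171953170 holds Cd244, Ly9, Slamf7, Cd48, Slamf1, Cd84 and Slamf6, and after a gap of 522.187 kb a second stretch of 115.211 kb from 172475358 to 172590568 holds Slamf9 and Slamf8. Ly9 (171588624 to 171607410, minus strand) lies wholly inside the annotated span of Cd244 (171559193 to 171609746, plus strand), so that the Pol II value of Cd244 contains that of Ly9. For this reason the part of Cd244 before Ly9 is given as well. Cd48 (171682009 to 171705258), Slamf1 (171767127 to 171801184), Cd84 (171839697 to 171890718), Slamf6 (171917515 to 171953170) and Slamf9 (172475358 to 172478575) are on the plus strand and Slamf8 (172581758 to 172590568) is on the minus strand. The annotated start of Slamf7 (171632403 to 171653035, minus strand) lies 4036 bp upstream of the start in RefSeq, and its H3K27ac is given at the RefSeq start.

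Promoter sequences from RefSeq (GRCm38.p6, from 250 bases before the start to 50 after it) were found for 8 of the 9 genes, all but Ly9. They are shown for the genes whose Pol II values moved most after LPS and for Cd244, which shares its locus with Ly9. The windows are chr1:171648950-171649249 on the minus strand for Slamf7, chr1:172590519-172590818 on the minus strand for Slamf8, chr1:171839447-171839746 on the plus strand for Cd84 and chr1:171558943-171559242 on the plus strand for Cd244. Capitals mark matches, on either strand, to TGANTCA (AP-1), to GGGA and TTCC set 2 bases apart (NF-kB), to GAAA and GAAA set 2 bases apart (interferon-stimulated response element, ISRE) and to TTNNGCAA (C/EBP).
Slamf7: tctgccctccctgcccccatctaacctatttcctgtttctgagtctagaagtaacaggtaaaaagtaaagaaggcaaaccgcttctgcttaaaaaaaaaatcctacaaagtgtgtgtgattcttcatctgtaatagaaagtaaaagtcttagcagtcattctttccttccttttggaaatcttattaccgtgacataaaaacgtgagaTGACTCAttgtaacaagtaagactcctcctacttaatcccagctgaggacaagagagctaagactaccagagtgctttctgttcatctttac
Slamf8: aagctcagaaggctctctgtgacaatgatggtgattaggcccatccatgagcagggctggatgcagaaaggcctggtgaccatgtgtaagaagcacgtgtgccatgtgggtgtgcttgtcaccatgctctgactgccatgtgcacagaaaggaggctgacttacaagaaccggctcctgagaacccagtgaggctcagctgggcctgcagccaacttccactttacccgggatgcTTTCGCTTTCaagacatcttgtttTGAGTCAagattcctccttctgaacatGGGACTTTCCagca
Cd84: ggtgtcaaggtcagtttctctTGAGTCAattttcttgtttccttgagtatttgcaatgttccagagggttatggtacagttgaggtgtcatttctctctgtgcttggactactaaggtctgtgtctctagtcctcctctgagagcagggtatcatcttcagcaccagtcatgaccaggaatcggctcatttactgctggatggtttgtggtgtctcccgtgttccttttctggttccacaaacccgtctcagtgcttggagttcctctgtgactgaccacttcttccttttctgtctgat
Cd244: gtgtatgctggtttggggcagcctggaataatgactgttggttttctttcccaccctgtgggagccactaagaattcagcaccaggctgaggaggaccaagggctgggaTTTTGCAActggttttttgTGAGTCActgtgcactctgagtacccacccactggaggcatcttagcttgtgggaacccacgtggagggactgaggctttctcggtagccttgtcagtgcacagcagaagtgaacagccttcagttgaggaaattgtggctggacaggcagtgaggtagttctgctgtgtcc
The AP-1 letters stood in 4 of the 8 promoters, and 7.81% of 32851 mouse promoters of the same length held them. Their first base was at -42 in Slamf7, 10 in Slamf8, -229 in Cd84 and -122 in Cd244. Positions are counted in the direction of the gene, with no position 0 between the base before the start and the start base. Slamf8 also held the NF-kB letters at 37, found in 1.47% of promoters, and the ISRE letters on the opposite strand at -15, found in 3.44%. The C/EBP letters stood at -141 in Cd244 (10.8% of promoters), and the letters GAGGAAGT (PU.1) stood at -8 in Slamf9 (3.20%). No member promoter held AAAGGTCA, the NBRE sequence to which Nur77 binds as a monomer, in this window, and 1.51% of all promoters did. None of these motifs overlapped another, and a match says only that the letters are present.

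Values are normalized tags, that is sequenced tags per 10 M of a library (M for mega) in the regions the authors called, and 0 means that no region was called there. Libraries held between 21.7 and 36.1 M tags for Pol II and between 13.5 and 55.4 M for H3K27ac, where KO libraries (23.6 to 55.4) were deeper than WT libraries (13.5 to 31.1). KO replicate 1 of H3K27ac at 1 h stood apart from the other replicates of its group (r of 0.912 and 0.913 across genes), and so did KO replicate 1 at 18 h, so H3K27ac counts are also given without these libraries. At Nr4a1, Pol II at 0 h was 195.3 ± 11.3 in WT against 78.1 ± 8.96 in KO, and at 1 h 26.3 ± 3.74 against 36.4 ± 2.77 (SD, n = 3), which is a weak check because the deleted part was not located. All 7 macrophage markers had Pol II in every group, with summed levels of 21207 to 45141, against sums of 123 to 451 for T cell markers (2 of 5 above 0, led by Cd5) and 41.4 to 210 for B cell markers. NK cell markers were at 0 except Klrk1 at 18 h (sums of 64.0 to 74.5 in KO and 21.3 to 28.6 in WT), dendritic cell markers were led by Xcr1 (sums of 258 to 1375), and of 5 neutrophil markers only S100a8 was above 0 (sums up to 45.3). The part of other cells in the values of the receptors was not tested, and in such bulk samples fewer cells with a signal and less signal per cell cannot be told apart.

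In resting WT cells Cd84, a self-binding receptor of myeloid cells and lymphocytes, was the receptor with most Pol II per length, with 128 ± 11.7 normalized tags per kb (SD, n = 3). Slamf7 (55.1 ± 5.31) and Cd48 (47.5 ± 5.17) followed and overlapped each other. Slamf8 (34.2 ± 1.31), Slamf9 (31.1 ± 2.28) and Ly9 (26.2 ± 2.24) came next with narrow gaps between their libraries, and Cd244 (13.7 ± 1.01) followed at a distance. Slamf6 was near 0 (0.29 ± 0.13) and Slamf1 was listed at 0. The order changed with LPS in both genotypes. Slamf7 was highest at 1 h (335 ± 7.92 per kb in WT and 138 ± 5.99 in KO) and at 18 h (381 ± 46.3 and 347 ± 6.86), and Cd84 ranked below Cd48 and Ly9 at 1 h (41.5 ± 2.14 in WT and 61.3 ± 0.52 in KO). In resting KO cells Slamf7 (17.3 ± 1.66) came after Ly9 (17.6 ± 0.56), whose libraries it overlapped.

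**Figure D1:**
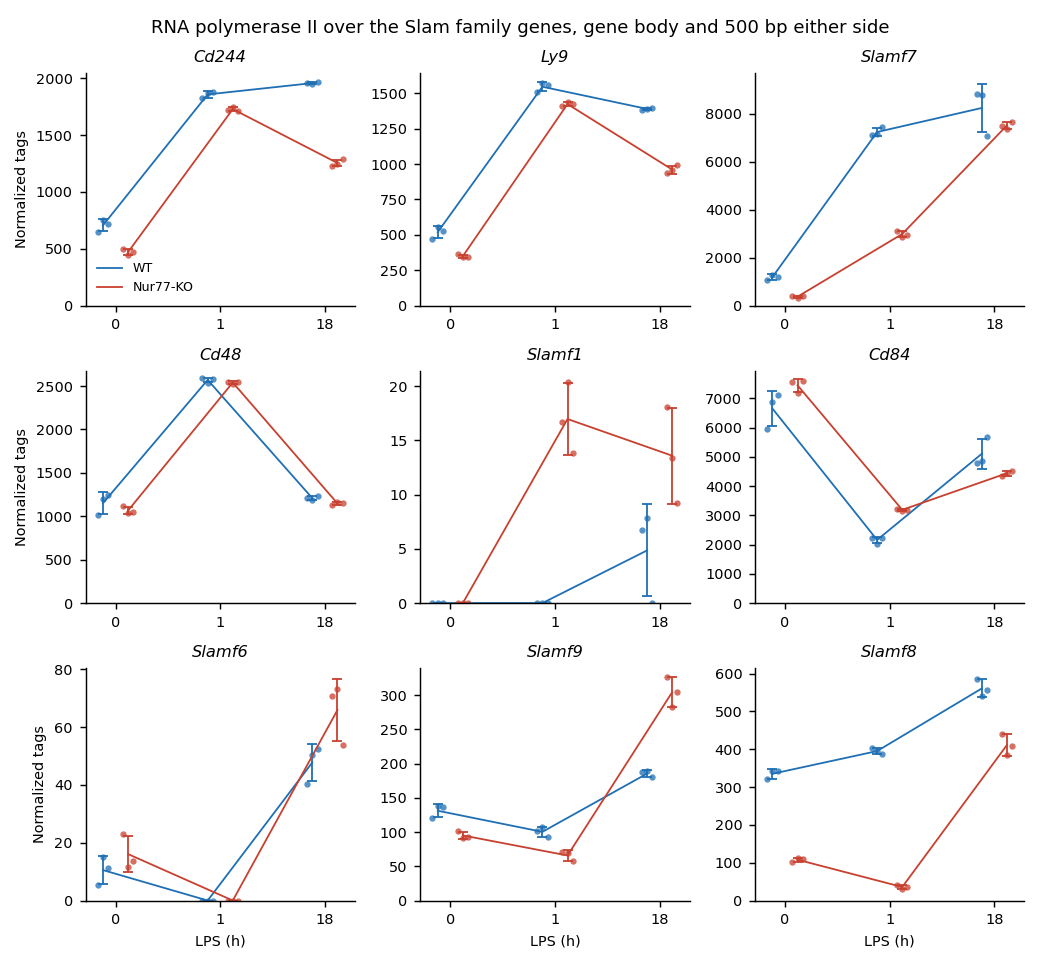
Normalized Pol II tags (per 10 M) from 500 bp before to 500 bp past each receptor gene, one panel per gene, against hours of LPS shown as categories; points are libraries and lines with bars are the mean and SD of 3 libraries of WT and KO. Slamf7 climbs in both genotypes and starts lower in KO (373 against 1192), Slamf8 drops at 1 h in KO (35.8 against 395 in WT), and Cd84 drops at 1 h in both.

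The first question was how the receptor genes respond to LPS in each genotype. Pol II at Slamf7, Ly9 and Cd48 rose and Pol II at Cd84 fell at 1 h in both genotypes, and by 18 h Slamf8, Slamf9 and Slamf6 were up as well. The counts that follow include Cd244 as higher over its whole span, which contains Ly9, although its part before Ly9 did not pass the test in WT at 1 h. In WT cells all 8 genes tested passed the test at 1 h (5 higher, 3 lower, limma adjusted p under 0.05), while 87.0% of all 13229 genes tested did (18.6% higher and 68.5% lower). In KO cells all 9 passed at 1 h (5 higher, 4 lower), against 82.8% of all genes (20.6% and 62.2%). At 18 h 7 of 9 were higher and 1 lower in WT (66.6% of all genes were called, 33.3% and 33.3%) and likewise 7 and 1 in KO (70.2% of all genes, 28.1% and 42.2%). By these counts the receptors held more rises and fewer falls than all genes, a difference that was not tested. The rises include Slamf1, which had no region in untreated libraries and could only be called higher. The falls at 1 h include Slamf6, which had no region then and could only be called lower. In WT at 18 h Slamf6 and Slamf1 lay below the input (47.8 against 77.1 and 4.85 against 31.0 normalized tags). The counts are therefore no result about the family as a whole. The median log2 change of all genes was -0.82 in WT and -0.62 in KO at 1 h, and -0.00 and -0.18 at 18 h, so changes at 1 h are to be read against a general fall. The genes tested differed by comparison because a gene needed a region in 2 of 3 libraries of a group compared, and Slamf1 in WT at 1 h was the only receptor left out.

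Slamf7 had the largest rise of the family. In WT it held 1069.7, 1298 and 1209 normalized tags at 0 h, 7124, 7162 and 7438 at 1 h, then 8843, 8806 and 7088 at 18 h. In KO it held 393, 332 and 395 at 0 h, 3131, 2876 and 2961 at 1 h, then 7488, 7384 and 7677 at 18 h. All libraries after LPS were above all untreated ones, and the genotypes were apart at 0 and 1 h and overlapped at 18 h. The means rose 6.07-fold at 1 h and 6.92-fold at 18 h in WT (log2 change 2.60 ± 0.09 SE, adjusted p = 1.22e-14, and 2.78 ± 0.09, adjusted p = 1.05e-14). In KO they rose 8.01-fold and 20.1-fold (2.97 ± 0.09, adjusted p = 2.07e-15, and 4.30 ± 0.09, adjusted p = 1.90e-17). Ordered from the most positive change, Slamf7 ranked 394 of 13229 genes at 1 h and 278 of 13348 at 18 h in WT, and 320 of 13256 and 135 of 13406 in KO.

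Slamf8 moved in opposite directions at 1 h. WT held 320, 342 and 343 normalized tags at 0 h, 403, 396 and 388 at 1 h, then 587, 540 and 556 at 18 h. KO held 102, 112 and 110.1 at 0 h, 40.7, 30.0 and 36.6 at 1 h, then 440.4, 384 and 410 at 18 h. At each time all KO libraries were below all WT libraries, and at 1 h the KO fell further away. In KO Pol II fell at 1 h (log2 change -1.37 ± 0.09 SE, adjusted p = 1.81e-10) and rose at 18 h (1.84 ± 0.09, adjusted p = 4.45e-12). In WT the rise at 1 h was small (0.23 ± 0.09, adjusted p = 0.0235) and that at 18 h larger (0.73 ± 0.09, adjusted p = 1.52e-06). The small rise in WT missed the threshold without WT replicate 1 at 0 h (adjusted p = 0.0632) or at 1 h (0.0596) and with the input subtracted (0.608). This rise also missed the threshold within 500 bp of the start (0.19, adjusted p = 0.134). The share of the gene covered by called regions moved with the level, from 51.3% to 20.04% and 95.9% with time in KO, whereas it was 100% in WT throughout. Per covered kb, KO held 21.4 normalized tags untreated, 18.2 at 1 h and 43.7 at 18 h, and within 500 bp of the start its fall at 1 h was much smaller (from 25.8 to 19.7 normalized tags, log2 change -0.27, adjusted p = 0.0408).

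Cd84 fell from the highest resting level of the family. WT held 5960.4, 6891 and 7099.7 normalized tags at 0 h, 2235, 2030.3 and 2209.7 at 1 h, then 4778, 4852 and 5687 at 18 h. KO held 7558, 7192 and 7584 at 0 h, 3211, 3158 and 3193 at 1 h, then 4358, 4438 and 4523 at 18 h. No library after LPS reached an untreated one of its genotype, and the level at 18 h lay between the other two times. The log2 change at 1 h was -1.62 ± 0.07 in WT (adjusted p = 4.15e-13) and -1.22 ± 0.07 in KO (adjusted p = 2.38e-11), both below the median of all genes. At 18 h it was -0.38 ± 0.07 (adjusted p = 0.000111) and -0.74 ± 0.07 (adjusted p = 3.31e-08). Close to the start of the gene the WT change at 18 h missed the threshold (-0.10, adjusted p = 0.730). The untreated WT value there is the gene-wide mean, because a region covered the whole gene.

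Ly9, a self-binding receptor best known from lymphocytes, rose early and stayed up. WT went from 470.2, 557 and 530.3 normalized tags at 0 h to 1508, 1569 and 1561 at 1 h, then 1381, 1389.6 and 1397 at 18 h. KO went from 362, 341 and 345 to 1408, 1441 and 1422 and then to 934, 959 and 989.7. The log2 changes at 1 h were 1.56 ± 0.06 in WT (adjusted p = 1.07e-13) and 2.00 ± 0.06 in KO (adjusted p = 3.57e-15), and those at 18 h were 1.41 ± 0.06 (adjusted p = 9.35e-13) and 1.43 ± 0.06 (adjusted p = 5.38e-13).

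Cd244, the receptor for CD48, followed Ly9 over its whole span (log2 change 1.39 in WT and 1.85 in KO at 1 h, 1.46 and 1.39 at 18 h), which contains Ly9. Before Ly9 it held 126, 128 and 132 normalized tags at 0 h, 137, 118 and 133 at 1 h, then 417, 392 and 403 at 18 h in WT, and 109, 83.6 and 94.0, then 149.7, 137 and 125, then 187, 171 and 181 in KO. There the libraries of WT overlapped at 0 and 1 h and were apart at 18 h. The log2 change of this part was 0.00 (adjusted p = 0.974) in WT and 0.48 (adjusted p = 0.000248) in KO at 1 h, and 1.58 and 0.85 at 18 h. Regions called in this part held 68.3 normalized tags per covered kb in WT and 62.9 in KO at 1 h. At 0 h they held 26.0 and 19.8. Ly9 itself held 78.1 and 71.9 at 1 h. Regions that reach in from Ly9 may thus enter this part, which was not tested. The rise in KO at 1 h is therefore no clear result for Cd244 alone. Within 500 bp of its start Pol II at Cd244 fell at 1 h (-1.44 in WT, adjusted p = 4.87e-06, and -1.19 in KO, adjusted p = 4.30e-05).

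Cd48, the ligand, rose at 1 h and was back near its untreated level at 18 h. It held 1009, 1196 and 1248 normalized tags at 0 h, 2591, 2539.8 and 2580.2 at 1 h, then 1211, 1183 and 1229 at 18 h in WT. In KO it held 1115, 1035 and 1049.6, then 2551, 2519 and 2552, then 1132, 1161 and 1148. The log2 change at 1 h was 1.16 ± 0.06 in WT (adjusted p = 1.47e-11) and 1.25 ± 0.06 in KO (adjusted p = 6.22e-12). At 18 h it was 0.07 ± 0.06 (adjusted p = 0.316) and 0.11 ± 0.06 (adjusted p = 0.153), and with quantile normalization both values turned negative (-0.28 and -0.16).

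Slamf9, a receptor of myeloid cells with a short tail, rose at 18 h, from 120.1, 137 and 136 normalized tags to 188, 189 and 180.0 in WT and from 102, 91.0 and 92.7 to 326, 283 and 304 in KO. The log2 change at 18 h was 0.47 ± 0.10 in WT (adjusted p = 0.000490) and 1.58 ± 0.10 in KO (adjusted p = 1.67e-10). The WT call was lost with the input subtracted (0.13, adjusted p = 0.416). At 1 h it held 101, 107 and 92.4 in WT and 71.4, 68.8 and 57.2 in KO, a log2 change of -0.36 ± 0.10 (adjusted p = 0.00321) and -0.48 ± 0.10 (adjusted p = 0.000305). That direction turned with centring on the median gene (0.44 and 0.10) and with quantile normalization (0.61 and 0.36), since the median of all genes fell further.

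Slamf6 and Slamf1, receptors best known from lymphocytes, were low and no higher than the input, except in KO at 18 h, where the input had no region. That input library held few regions across the genome, 27554 against 64725 to 108461 in the other inputs. A missing input region there thus does not place these receptors above background. Slamf6 held between 5.40 and 23.1 normalized tags at 0 h, was listed at 0 in all libraries at 1 h and held 40.4, 50.4 and 52.6 in WT and 70.8, 73.3 and 53.7 in KO at 18 h. Its log2 change was -1.01 ± 0.18 in WT (adjusted p = 6.31e-05) and -1.36 ± 0.18 in KO (adjusted p = 2.52e-06) at 1 h, and 1.52 ± 0.18 and 1.56 ± 0.18 at 18 h (adjusted p = 1.12e-06 and 6.86e-07). The input of a group at Slamf6 reached up to 318% of the mean ChIP value, and centring on the median gene left the fall in WT at 1 h short of the threshold (-0.21, adjusted p = 0.236). Slamf1 was listed at 0 in all untreated libraries and reached at most 20.4 normalized tags in KO and 7.83 in WT. It was called higher in KO at 1 h and 18 h (log2 change 1.42 ± 0.19 and 1.22 ± 0.19) and in WT at 18 h (0.53 ± 0.19, adjusted p = 0.0191), where 1 of 3 libraries was at 0 and the input reached 638% of the ChIP mean. Log2 changes from a group at 0 depend on the 10 tags added before taking the log. Slamf1 entered each test only through its LPS libraries, so it could be called in no direction but higher. Slamf6 at 1 h entered only through its untreated libraries, so there it could be called in no direction but lower.

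The input did not come near the antibody signal at the receptors with high levels. It held 17.5 to 356 normalized tags at Slamf7 (at most 15.7% of the mean ChIP value of its group), 81.3 to 491 at Cd84 (17.8%), 12.9 to 174 at Ly9 (15.6%) and 27.4 to 338 at Cd48 (21.4%). At Slamf8 it reached 47.9% of the ChIP mean, in KO at 1 h, and at Slamf9 55.2%, also in KO at 1 h.

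**Figure D2:**
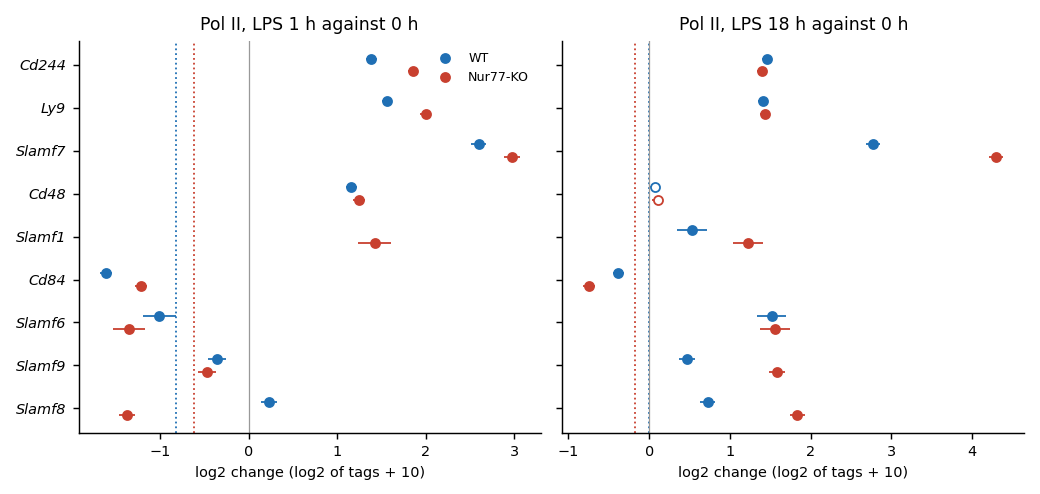
Log2 change in Pol II after 1 h and 18 h LPS against 0 h for each receptor gene in WT and KO, with the SE; filled points passed the limma test, open points did not, and dotted lines mark the median change of all genes tested. Slamf7 has the largest rise in both genotypes (4.30 in KO and 2.78 in WT at 18 h), Slamf8 at 1 h falls in KO (-1.37) and not in WT (0.23), and the Slamf9 values at 1 h lie between 0 and the median of all genes.

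H3K27ac within 2500 bp of the gene start gave a second readout. In WT 3 of the 8 genes tested rose and 2 fell at 1 h (54.7% of all 11903 genes tested were called, 25.3% and 29.4%), and in KO 3 rose and 2 fell (47.0%, 20.4% and 26.6%). At 18 h 6 of 9 rose and 1 fell in WT (50.0%, 23.6% and 26.5%) and 6 and 1 in KO (52.7%, 18.4% and 34.2%). Without both KO libraries that stood apart, 7 receptors were called in WT and 6 in KO at 1 h, and 7 and 8 at 18 h. The shares of all genes called in that fit are not given, so these counts are no result about the receptors. These counts use the annotated start of Slamf7, and with its RefSeq start 4 rose and 2 fell in KO at 1 h, while the other 3 counts were the same. Slamf1 at 18 h and Slamf7 at the annotated start had no region in untreated libraries and could only be called higher.

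At Ly9, H3K27ac rose from 399.5, 427 and 386 normalized tags to 1159.5, 986 and 1021.5 at 1 h, then 1464, 1409.7 and 1381.5 at 18 h in WT. In KO it rose from 226, 235 and 217 to 743, 800.4 and 759.5 and then to 1359, 1354 and 1205. The log2 change was 1.36 ± 0.08 in WT (adjusted p = 1.48e-09) and 1.72 ± 0.08 in KO (adjusted p = 1.77e-10) at 1 h, and 1.79 ± 0.08 (adjusted p = 5.84e-11) and 2.48 ± 0.08 (adjusted p = 1.43e-12) at 18 h. All LPS libraries lay above the untreated ones, and the KO was below the WT at each time.

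At Cd84 the mark fell with Pol II, from 1659, 1864 and 1654 normalized tags to 802, 789.6 and 785 at 1 h in WT and from 1824, 1726 and 1892 to 1123, 1253 and 1162 in KO. The log2 change at 1 h was -1.11 ± 0.08 (adjusted p = 2.41e-08) and -0.62 ± 0.08 (adjusted p = 1.76e-05). At 18 h it was -0.26 ± 0.08 in WT (adjusted p = 0.0144) and -0.41 ± 0.08 in KO (adjusted p = 0.000492), and the WT call was lost without WT replicate 2 at 0 h (adjusted p = 0.0759).

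At Slamf8 the mark rose in both genotypes, also where Pol II fell. WT went from 289, 328 and 331 normalized tags to 522, 495 and 500.3 at 1 h, then 646, 641 and 691 at 18 h. KO went from 279.5, 272 and 211 to 273, 327 and 329 and then to 579.9, 677 and 642, so that its libraries overlapped between 0 and 1 h. The log2 change was 0.66 ± 0.10 (adjusted p = 5.79e-05) and 1.04 ± 0.10 (adjusted p = 6.02e-07) in WT and 0.28 ± 0.10 (adjusted p = 0.0353) and 1.29 ± 0.10 (adjusted p = 4.69e-08) in KO. The call in KO at 1 h rests on single libraries, as it was lost without KO replicate 3 at 0 h (adjusted p = 0.208), replicate 2 at 1 h (0.109) or replicate 3 at 1 h (0.115).

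At the RefSeq start of Slamf7, H3K27ac rose from 332, 292 and 359 normalized tags to 865, 922 and 928 and then to 1310.4, 1339 and 1325 in WT. In KO it rose from 93.6, 87.8 and 86.4 to 339, 191 and 182 and then to 888, 1021 and 988. No KO library reached a WT library of the same time. The log2 change was 1.44 ± 0.16 (adjusted p = 1.81e-06) and 1.99 ± 0.16 (adjusted p = 5.13e-08) in WT and 1.26 ± 0.16 (adjusted p = 1.14e-05) and 3.30 ± 0.16 (adjusted p = 1.40e-10) in KO. At the annotated start further upstream the mark was listed at 0 in all untreated libraries, was called higher in WT at both times and in KO at 18 h, and that last call was lost without KO replicate 2 (adjusted p = 0.0862) or 3 (0.0814) at 18 h. With no untreated region at that start, a fall could not have been called.

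At Slamf9 the mark rose at 18 h (log2 change 0.90 ± 0.16 in WT and 1.30 ± 0.16 in KO, adjusted p = 0.000199 and 4.76e-06), with 0.24 (adjusted p = 0.215) and 0.35 (adjusted p = 0.0814) at 1 h. Slamf6 rose at 18 h from 31.3, 39.3 and 33.9 to 226, 240.2 and 263 normalized tags in WT and from 49.4, 48.7 and 53.4 to 153, 327 and 309 in KO (2.50 ± 0.24 and 2.103 ± 0.24, adjusted p = 4.88e-07 and 2.92e-06). Its fall in KO at 1 h (-0.74 ± 0.24, adjusted p = 0.0205) was lost without KO replicate 3 at 0 h (adjusted p = 0.0598), replicate 2 at 1 h (0.0794) or replicate 3 at 1 h (0.0828). Slamf1 was called higher at 18 h in both genotypes at levels up to 27.2 normalized tags. It had no region in any untreated library, so no other direction could be called. Cd48 rose in KO at 1 h (1.02 ± 0.20, adjusted p = 0.000564), with 0.43 ± 0.20 in WT (adjusted p = 0.0776). Without both KO libraries that stood apart, the WT value of 0.43 passed the test (adjusted p = 0.00330) and the KO value was 0.78 (adjusted p = 7.40e-05). At Cd244 the mark fell in WT at 1 h, from 211, 219 and 190.3 to 75.0, 49.7 and 81.1 normalized tags (-1.48 ± 0.26, adjusted p = 0.000149), with -0.05 ± 0.26 in KO (adjusted p = 0.899), which was 0.35 (adjusted p = 0.0791) without both KO libraries that stood apart. The input at Cd244 in KO held 54.3 normalized tags untreated, 51.0% of the mean ChIP value, and 52.5 at 1 h.

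**Figure D3:**
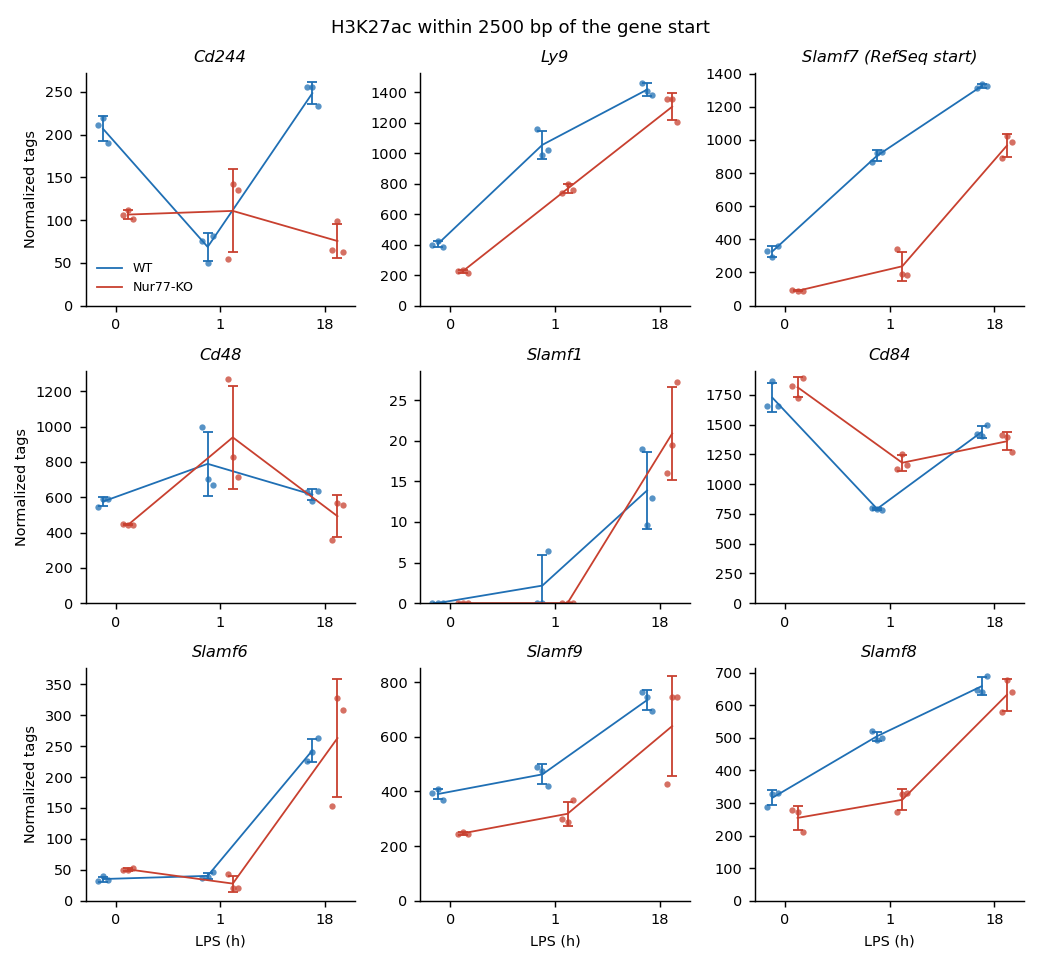
Normalized H3K27ac tags (per 10 M) within 2500 bp of the start of each receptor gene (for Slamf7 the RefSeq start) against hours of LPS shown as categories; points are libraries and lines with bars are the mean and SD of 3 libraries of WT and KO. Ly9 and Slamf7 climb with LPS, Cd84 drops at 1 h (792 in WT and 1179 in KO), and KO replicate 1 stands away from its group at several genes at 1 and 18 h.

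The second question was where KO and WT differed. Because the segment was chosen for such differences, the values are a description. Of the receptors with Pol II regions, 5 of 8 at 0 h, 5 of 8 at 1 h and 5 of 9 at 18 h had all KO libraries below all WT libraries, while 6.94%, 10.6% and 30.4% of all genes did. All KO libraries lay above all WT libraries at 1, 2 and 3 receptors (14.1%, 45.9% and 14.0% of all genes). Libraries of the genotypes were thus apart in either direction at 6, 7 and 8 receptors, and at 21.1%, 56.5% and 44.4% of all genes. These Pol II counts take Cd244 over its whole span, which contains Ly9, so the signal of Ly9 enters them through both genes. For H3K27ac the KO was lower at 5 of 7, 4 of 8 and 3 of 9 receptors (9.11%, 13.0% and 16.4% of all genes) and higher at 1, 1 and 0 (28.9%, 16.0% and 6.37%), and 38.0%, 29.0% and 22.8% of all genes were apart in either direction. With the RefSeq start of Slamf7, where the KO was lower at all 3 times, it was lower at 6, 4 and 4 receptors. The median log2 difference of all genes, KO minus WT, was 0.24 for Pol II at 1 h and between -0.10 and 0.06 otherwise.

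The widest gaps in Pol II were at Slamf7 and Slamf8. Slamf7 was 3.19-fold higher in WT at 0 h and 2.42-fold at 1 h (KO minus WT -1.65 and -1.27 on the log2 scale) and differed by less than the spread of the WT libraries at 18 h (-0.13). Slamf8 was 3.10-fold higher in WT at 0 h, 11.0-fold at 1 h and 1.36-fold at 18 h (-1.55, -3.15 and -0.44). Per covered kb Slamf7 went from 24.5 to 163 and 405 normalized tags in KO and from 66.4 to 391 and 443 in WT. Slamf8 per covered kb went from 21.4 to 18.2 and 43.7 in KO against 34.2, 40.3 and 57.2 in WT, so that the gap was narrower on this scale. The log2 change with LPS in KO minus that in WT was 1.52 ± 0.12 (SE) at 18 h for Slamf7, -1.60 ± 0.13 at 1 h and 1.11 ± 0.13 at 18 h for Slamf8, and 1.11 ± 0.14 at 18 h for Slamf9. Ly9 was 1.49-fold higher in WT at 0 h, 1.09-fold at 1 h and 1.45-fold at 18 h.

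Pol II at Cd244 was 1.505-fold higher in WT at 0 h, 1.07-fold at 1 h and 1.56-fold at 18 h over its span, which contains Ly9, with all KO libraries below all WT libraries. Before Ly9 it held 129 ± 2.86 normalized tags in WT against 95.5 ± 12.7 in KO at 0 h. At 1 h this part, which regions from Ly9 may enter, held 129 ± 10.2 in WT against 137 ± 12.5 in KO. The libraries of this part overlapped then. At 18 h it held 404 ± 12.6 in WT against 179.8 ± 8.11 in KO. Pol II at Cd84 was higher in KO at 0 h (1.12-fold) and 1 h (1.48-fold) and lower at 18 h (WT 1.15-fold higher). Within 500 bp of its start the KO mean was the higher one at each time. It was 312 ± 10.0 normalized tags against 128 ± 11.7 in WT at 0 h and 124 ± 11.1 against 60.1 ± 16.3 at 1 h. At 18 h it was 176 ± 3.71 against 124.7 ± 55.6, where the libraries overlapped. In WT at 0 h a region covered the whole gene, so the value near the start is the gene-wide mean (128 per kb). In KO at 0 h regions covered 86.1% of the gene, with 166 normalized tags per covered kb and 312 per kb near the start. The gap near the start thus moves with how regions were joined and is no clear difference at the promoter. Slamf9 was lower in KO at 0 and 1 h (WT 1.38-fold and 1.53-fold higher) and higher at 18 h (1.64-fold). Cd48 overlapped between genotypes at 0 and 1 h, with WT 1.08-fold and 1.01-fold higher. H3K27ac at Cd244 was 1.94-fold higher in WT at 0 h and 3.29-fold at 18 h, and overlapped at 1 h.

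The receptors share the segment with 50 other protein-coding genes between 171059193 and 173090568, a window that reaches 500000 bp past the outermost members. Of 42 of these with Pol II at a given time, 13, 18 and 27 had all KO libraries below all WT libraries at 0, 1 and 18 h, and 6, 11 and 4 had them above. Of all genes, 6.94%, 10.6% and 30.4% had them below and 14.1%, 45.9% and 14.0% above. For H3K27ac, 14 of 38, 14 of 37 and 16 of 36 neighbours had them below and 13, 3 and 2 above. The shares of all genes for H3K27ac were 9.11%, 13.0% and 16.4% below and 28.9%, 16.0% and 6.37% above. Igsf9, which encodes an immunoglobulin superfamily adhesion protein, lies between Slamf9 and Slamf8 and had the largest mean Pol II difference (-1.998 on the log2 scale). It went from 47.5 to 42.4 and 215 normalized tags in KO and from 170.0 to 282 and 795 in WT. Vsig8, between the same receptors, was lower in KO at all 3 times as well (-1.84), and for H3K27ac both Vsig8 (-1.62) and Cfap45 (-1.61) were. Nr1i3, near the other end of the window, was higher in KO on average for Pol II (1.55) and H3K27ac (1.71), with the Pol II libraries overlapping at 0 and 1 h. The genes Igsf9, Cfap45 and Vsig8 between Slamf9 and Slamf8 were lower in KO for Pol II at each time, as Slamf8 was.

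**Figure D4:**
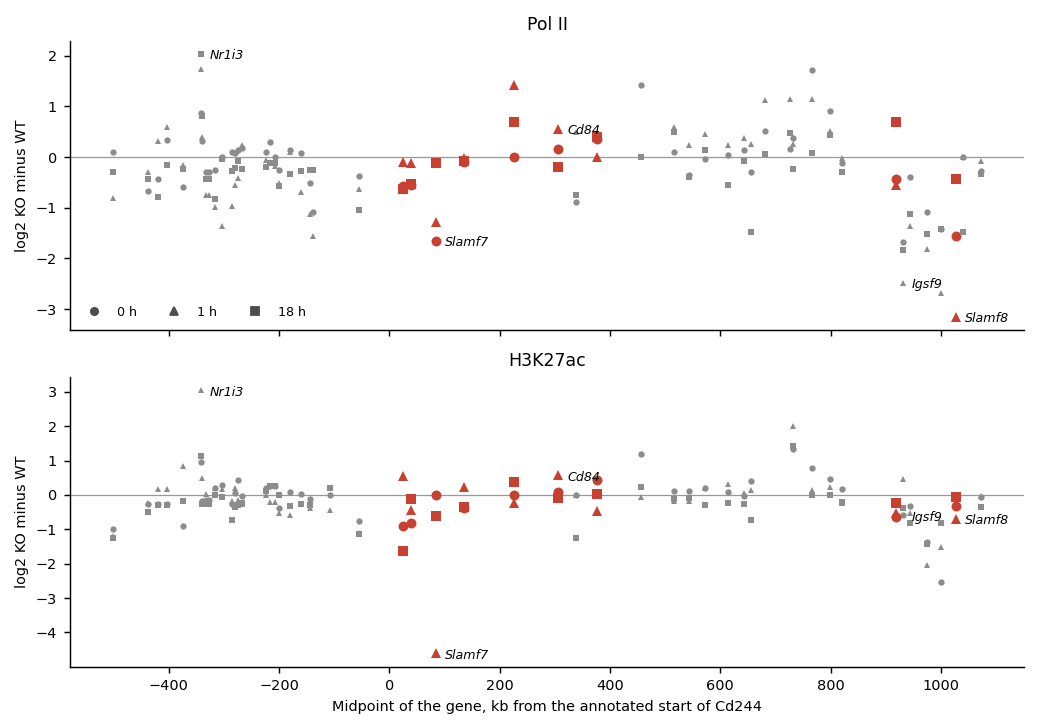
Difference between KO and WT (log2, KO minus WT) for each gene with regions along the segment, Pol II in the first panel and H3K27ac in the second, against the distance in kb of the midpoint of the gene from the annotated start of Cd244; circles are 0 h, triangles 1 h and squares 18 h, with the receptors in red and the neighbours in grey. Pol II points at Slamf7 and in the stretch from Slamf9 to Slamf8 reach furthest down (Slamf8 -3.15 and Vsig8 -2.69 at 1 h), and Cd48 lies near 0. H3K27ac is at annotated starts, which puts Slamf7 at -4.61 at 1 h.

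The genes whose Pol II pattern over the 18 libraries was most like that of a receptor were found by Pearson correlation on the log2 scale among 13206 genes. The libraries are shared between all genes and differ mainly by LPS time, so the values only describe the pattern. Slamf7 was most like Ddx27 (r = 0.978), the interferon-induced GTPase gene Gbp2 (0.975) and the activation marker Cd69 (0.962). Slamf8 was most like the DNA sensor gene Cgas (0.913) and, among the next, its neighbour Igsf9 (0.893). Cd84 followed Dazap2 (0.992), Frrs1 (0.990) and Cttnbp2nl (0.990), and Cd48 followed Ell2, Sh3bgrl2 and Snx18 (all 0.995). Ly9 was most like Cd244, which contains it (0.995), then the C-type lectin gene Clec4e (0.979) and Rapgef2 (0.976), and after Ly9 Cd244 was most like Rapgef2 (0.970) and Bcl3 (0.967). Slamf9 was most like Ulbp1 (0.965), Cul2 (0.961) and St3gal5 (0.959), Slamf6 like Tent5a (0.990), Sars (0.987) and Mapk9 (0.986), and Slamf1 like Mcemp1 (0.927), Fem1a (0.899) and Ammecr1l (0.895), the last 2 receptors at low levels.

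Among 20 genes that relay or limit SLAM signals, 18 could be tested for Pol II. At 1 h 6 rose and 11 fell in WT and 7 and 9 in KO (median log2 change -0.51 and -0.34), and at 18 h 11 rose and 2 fell in WT and 7 and 4 in KO (0.44 and 0.04). Of all genes, 18.6% rose and 68.5% fell in WT and 20.6% and 62.2% in KO at 1 h, with medians of -0.82 and -0.62, and at 18 h 33.3% and 33.3% in WT and 28.1% and 42.2% in KO, with medians of -0.00 and -0.18. Sh2d1a, which encodes the adaptor SAP, and Cd2 were listed at 0 in every library. Sh2d1b1, the gene of the related adaptor EAT2, lies on the same chromosome at 170277320 to 170286769, before the window of neighbours. Whether it belongs to the segment that differs between the genotypes was not tested. It went from 73.2 ± 9.98 to 2.30 ± 3.98 and 84.2 ± 11.6 normalized tags in WT. In KO it held 24.0 ± 5.95 when untreated and was listed at 0 afterwards. It has a close copy in Sh2d1b2, and how tags were split between them was not stated. Inpp5d, which encodes the lipid phosphatase SHIP1 that receptors of the family can recruit, fell most at 1 h (-6.22 in WT and -5.38 in KO). Itgam, a chain of the integrin that works with SLAMF7 in phagocytosis, fell at 1 h too (-3.45 and -4.13). The kinase genes Fgr (2.27 and 2.66) and Syk (1.88 and 1.83) rose at 1 h, as did the phosphatase gene Ptpn11 (1.52 and 2.11). At 18 h the kinase gene Lyn (1.04 and 0.94) rose and Tyrobp, which encodes the adaptor DAP12, fell (-0.96 and -1.36). For H3K27ac 17 of the 20 were tested, and 7 rose and 5 fell in WT and 8 and 4 in KO at 1 h, and 8 and 1 in WT and 6 and 4 in KO at 18 h, beside 25.3% and 29.4%, 20.4% and 26.6%, 23.6% and 26.5%, and 18.4% and 34.2% of all genes.

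All 7 genes of the NADPH oxidase on which SLAMF1 and SLAMF8 act had Pol II. At 1 h 4 rose and 3 fell in WT and 3 and 3 in KO (median 0.36 and 0.11), and at 18 h 4 and 1 in WT and 3 and 3 in KO (0.32 and 0.12). Of all genes, 87.0% and 82.8% were called at 1 h and 66.6% and 70.2% at 18 h. Cybb, the catalytic subunit, rose from 1455 ± 134 to 12328 ± 459.9 and 4298 ± 77.2 normalized tags in WT and from 1471 ± 14.9 to 13642 ± 282 and 4651 ± 41.6 in KO (log2 change 3.08 and 3.20 at 1 h, 1.56 and 1.65 at 18 h). Rac1, the small GTPase, changed by -0.82 and -0.99, near the median of all genes. Of the H3K27ac values, Cyba, the membrane partner of Cybb, rose at 1 h (1.02 and 0.89), and in all 2 and 2, 3 and 2, 3 and 2, and 2 and 2 genes rose and fell in WT at 1 h, KO at 1 h, WT at 18 h and KO at 18 h. Of all genes, 54.7%, 47.0%, 50.0% and 52.7% were called for H3K27ac in the same order.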

How the data were processed

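Pol II and H3K27ac were measured by ChIP-seq, with 3 libraries per antibody and 1 input in each of 6 groups. Reads had been trimmed by the authors (Skewer), mapped to mm10 with HISAT2 2.1.0 and freed of duplicates, and broad regions were called per library with HOMER without an input (per the file headers, 500 bp windows, Poisson p 0.001, stitched within 1000 bp). The deposited signal of a region is its tags per 10 M. No test on counts was run. Regions were shared out by overlap over a gene with 500 bp on either side (Pol II) or within 2500 bp of its start (H3K27ac). The tags of a region were spread evenly over its length. A value near the start is therefore a mean over a longer stretch where the region reaches beyond that window. A gene without a region was set to 0, so a sum moves with how much was called. Catalogue numbers of the Pol II antibody differ between labels and methods.

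Gene positions came from GENCODE vM21 (54 genes with shared symbols left out). log2(tags + 10) was fitted with limma 3.58.1 (R 4.3.3) with 6 group means and a mean-variance trend, over all genes with a region in 2 of 3 libraries of a group compared, with two-sided tests and Benjamini-Hochberg adjustment over these genes. No source gives the mouse behind a library, so p-values measure the spread between these libraries. Scripts (Python 3.11.15) were tested on simulated data. The members, gene lists and tests were chosen with earlier results of these data known. Named are the members, Nr4a1, of each list the 2 called genes that moved most per direction, of the neighbours the 3 with the largest mean difference per antibody, and the 3 genes most like each member; Sh2d1a, Cd2 and a named list gene's value in the second genotype were added after their values were seen. Some genes that this rule names are not reported here. Alternatives were another pseudocount, no filter, input subtraction, median centring, quantile normalization, other windows, a replicate block, a common density floor, fits on the groups compared alone and leaving out each library. Chosen after seeing the data were the part of Cd244 before Ly9, the RefSeq starts, H3K27ac over the gene and the fit without both KO libraries.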

Additional observations from a re-analysis of the deposited data

Results flagged for a closer look

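Pol II at Slamf8 after 1 h LPS moved in opposite directions in the genotypes, with every KO library below and every WT library above the untreated libraries of its genotype. The log2 change was -1.37 in KO and 0.23 in WT, a difference of -1.60, which was not tested because the genotype difference was used in choosing the genes. Within 500 bp of the start the KO change was -0.27 (limma adjusted p = 0.0408), and the covered share of the gene fell in KO from 51.3% to 20.04%. The WT rise missed the threshold with the input subtracted (0.06, limma adjusted p = 0.608). Within 500 bp of the start it did so too (0.19, limma adjusted p = 0.134), but there the WT density equals that of the whole gene. It also missed the threshold without WT replicate 1 at 0 h (adjusted p = 0.0632) or at 1 h (0.0596). H3K27ac at Cd244 after 18 h LPS also moved apart, with a log2 change of -0.47 in KO (limma adjusted p = 0.135) and 0.25 in WT (adjusted p = 0.429), a difference of -0.72, which was not tested either. Neither of these H3K27ac changes passed the threshold, while all KO libraries at 18 h lay below and all WT libraries above their untreated libraries. The KO input at this start held 54.3 normalized tags untreated and 5.79 at 18 h, and with the input subtracted the KO change turned to 0.33 (adjusted p = 0.632). The KO input library at 18 h held few regions across the genome, 27554 against 64725 to 108461 in the other inputs, which limits this comparison.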

How the results depend on the processing

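Of the values for single receptors, 1057 LPS results kept their direction and side of the threshold, 31 lost and 15 gained a call and 21 turned, while 569 genotype differences stayed within the spread, 103 moved and 6 turned. The number of receptors whose KO and WT Pol II libraries were apart fell from 6 to 3 at 0 h, from 7 to 4 at 1 h and from 8 to 5 at 18 h within 500 bp of the start. Slamf7 could not count in this window, as no library had a Pol II region at its annotated start. The RefSeq start of Slamf7 was not used for Pol II, and the share of all genes apart in this window is not given. For H3K27ac at 18 h the number of receptors apart went from 3 to 5 over the gene body, to 1 with median centring and to 1 with quantile normalization. It was 6 without both KO libraries that stood apart. Fewer KO libraries lie apart from the WT libraries more easily, and the share of all genes in that fit is not given. Receptors called after LPS fell from 8 to 5 for Pol II in WT at 18 h with the input subtracted, where Slamf9 lost its call and Slamf1 and Slamf6 could not be tested. For H3K27ac in KO at 1 h they fell from 5 to 3 with the input subtracted and with no filter, and lay between 3 and 5 when 1 library was left out. The values that turned were, on the log2 scale, for Pol II near the start of Cd244 after 1 h LPS -1.44 in WT and -1.19 in KO; for Slamf9 at 1 h 0.44 in WT and 0.0974 in KO with median centring and 0.61 and 0.36 with quantile normalization; and for Cd48 at 18 h -0.28 in WT and -0.16 in KO with quantile normalization. Over the gene body H3K27ac at Cd244 turned at 1 h to 1.505 in WT and 2.08 in KO, and at 18 h to 2.26 in KO, where the gene contains Ly9. Of values that passed no test before or after, H3K27ac at Cd244 in KO at 1 h turned to 0.0885 within the narrow window, 0.0136 with quantile normalization and 0.35 without both KO libraries that stood apart, and lay between -0.26 and 0.35 when 1 library was left out; at 18 h it turned to 0.33 with the input subtracted. H3K27ac at Slamf6 in WT at 1 h turned to -0.0842 over the gene body and at Cd48 in WT at 18 h to -0.11 with quantile normalization. Pol II at Cd48 at 18 h turned to -0.0646 near the start in KO, and in WT to -0.0535 with the input subtracted and, with 1 library left out, lay between -0.0164 (without WT replicate 1 at 0 h) and 0.14. The genotype difference turned for Pol II at Cd244 at 1 h near the start (0.0792) and before Ly9 (0.0785), at Cd48 at 18 h with the input subtracted (0.24) and with median centring (0.0651), at Cd84 at 18 h near the start (0.54), and for H3K27ac at Ly9 at 18 h with quantile normalization (0.0237). The cause of these turns was not tested. This includes H3K27ac at Cd244 over the gene body, for which no fit without Ly9 was run. With the replicate number as a block, all 69 LPS results kept their call, and the counts were 8, 9, 8 and 8 for Pol II and 5, 5, 7 and 7 for H3K27ac (WT and KO at 1 h, then WT and KO at 18 h). No source says whether the numbers pair the libraries. Of the same-numbered pairs, 1 of 45 for Pol II and 0 of 45 for H3K27ac correlated above 0.1, and 10 and 3 of 18 libraries correlated best with their own number. Such correlations cannot decide whether same-numbered libraries came from the same mouse. A region too weak to be called at a library's depth has no value, which limits Slamf1 and Slamf6 most.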
